A study of Rattus norvegicus with 16 samples.

Results

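Semaphorins, ephrins, Slits and netrins are extracellular cues that were first described as guides of growing axons, and they act through plexins, neuropilins, Eph receptors, Robo proteins and Unc5 receptors. These ligand and receptor genes were examined in glomeruli of rats injured with puromycin aminonucleoside. The members were taken by gene symbol, as every listed semaphorin, plexin, neuropilin, ephrin, Eph receptor, Slit, Robo, netrin and Unc5 gene. They numbered 51 of the 13222 genes in the table. The 51 were 6 secreted semaphorins, 12 membrane semaphorins, 7 plexins, 2 neuropilins, 3 ephrins, 4 EphA and 5 EphB receptors, 2 Slits, 3 Robo genes, 3 netrins and 4 genes with an Unc5 symbol. One of the last, Unc5cl, carries the symbol but is not a netrin receptor, and Sema3a was not analysed here.

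RNA-seq was done on glomeruli taken on day 11 from 16 male Wistar rats in 4 groups of 4. The control group (Ctl in the labels) was healthy, and the other 3 groups were injected intravenously with puromycin aminonucleoside (PAN), a podocyte toxin that gives rats heavy proteinuria. The PAN group is labelled Injury_Model_A, and its daily gavage was the sham vehicle. The PAN_Pio group was gavaged each day with pioglitazone, a thiazolidinedione that activates the nuclear receptor PPAR-gamma. The PAN_GQ-16 group was gavaged with GQ-16, a compound known as a partial PPAR-gamma agonist. Doses and ages were not given in the sources used here, and no group received a drug without PAN. Glomeruli were isolated by sieving, so the cells are those of the whole glomerulus with whatever tubule or vessel came along.

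The glomerular filter is built by podocytes, a fenestrated endothelium and the basement membrane between them, with mesangial cells holding the capillary loops. Several guidance genes are known parts of this filter. Sema3g is secreted by podocytes, Robo2 and ephrin-B1 sit in or near the podocyte slit diaphragm, and ephrin-B2 with its receptor EphB4 are classic markers of arterial and venous endothelium. Netrin-4 is a basement membrane protein, and Unc5b is an endothelial receptor.

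Values are reads per gene scaled to the library total (CPM), and the 4 values of a group are given in the order of rats 1 to 4. Transcript length was not used, so CPM are compared between rats and never between genes. Tests were limma fits on log2(CPM + 1) over all 13222 genes, and a gene was called where its Benjamini-Hochberg adjusted p was under 0.05. Differences are log2 values ± SE, and a log2 difference on this scale understates the change of weakly expressed genes. Library totals ran from 13351137 to 21977663 reads. Mitochondrial transcripts took 13.7% to 39.0% of the reads in control rats, against 5.83% to 10.6% in PAN, 8.60% to 19.0% in PAN_Pio and 6.63% to 30.9% in PAN_GQ-16. Scaling by library totals left the median gene 0.28 higher in log2 in PAN than in control. A second scaling, by the median ratio of each library to the gene geometric means, put that median at -0.0025. Differences are therefore given under the deposited scaling unless another scaling is stated. Nothing in the labels says that the rats came from separate litters or days, so p-values measure the spread between these rats only. The sample titles carry a number, called the library number here, and the labels do not say what it stands for. It was 25 or higher in 3 of 4 PAN rats, in 1 of 4 PAN_Pio rats, in 1 of 4 PAN_GQ-16 rats and in 0 of 4 controls.

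The summed levels of cell type markers varied between rats. The summed level of 12 podocyte markers, all 12 of them listed, was 2904 to 10451 CPM in control, 8312 to 12112 in PAN, 5166 to 13546 in PAN_Pio and 4813 to 16638 in PAN_GQ-16. Control rat 1 was the highest control, at 10451 CPM against at most 5245 CPM in the other 3 controls, and lay within the PAN range. Control rats 2 and 3 had the lowest sums of the 16 rats, at 2907 and 2904 CPM. They also had the highest mitochondrial shares, at 39.0% and 32.1%. The 8 listed endothelial markers of 9 summed to 4772 to 6552 CPM in control, 4610.2 to 6624 in PAN, 4999 to 9043 in PAN_Pio and 4403 to 5586 in PAN_GQ-16. Mesangial and smooth muscle markers, 7 listed of 8, summed to 291 to 789 CPM in control, 1588 to 2695 in PAN, 1127 to 1588 in PAN_Pio and 702 to 1288 in PAN_GQ-16. All 7 were higher in PAN by the limma test, and 6 of them also under median-ratio scaling. Tubule markers, 12 listed of 12, summed to 4810.4 to 8119 CPM in control, 2853 to 8623 in PAN, 2558 to 7206 in PAN_Pio and 3582 to 6197 in PAN_GQ-16. Leukocyte markers, 8 of 8, summed to 472 to 816 CPM in control, 745 to 1686 in PAN, 737 to 1003 in PAN_Pio and 546 to 832 in PAN_GQ-16. The 3 listed of 6 fibroblast markers summed to 2598 CPM in PAN rat 1 and to at most 294 CPM in the other PAN rats, against 12.3 to 61.5 CPM in control. They summed to 159 to 289 CPM in PAN_Pio and 175 to 906 CPM in PAN_GQ-16. Parietal epithelial markers (4 of 5) summed to 96.2 to 148 CPM in control, 83.8 to 135 in PAN, 56.3 to 133 in PAN_Pio and 72.4 to 143 in PAN_GQ-16. The 1 listed of 4 Schwann cell markers was at 2.73 to 3.98 CPM in control and 3.53 to 5.80 in PAN. It was at 3.44 to 5.84 CPM in PAN_Pio and 2.96 to 5.89 in PAN_GQ-16. By limma 4 podocyte, 4 leukocyte, 2 endothelial and 1 fibroblast marker were also called higher in PAN, and 3 tubule markers lower. Under median-ratio scaling these were 1, 0, 1 and 1 higher and 2 lower. All genes gave 21.7% higher and 0.522% lower, and 7.12% and 1.51% under median-ratio scaling. No listed marker was at 0 in any library. In whole glomeruli, fewer cells of a type and less RNA per cell cannot be told apart.

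The promoters of 4 members are shown for reference, since their genes carry the results below. Sema3g varied with the podocyte markers, Sema7a and Ephb3 rose in PAN, and Ntn4 was called lower in PAN with median-ratio scaling but not with the deposited one. Each line is the 250 bases before the RefSeq transcription start in the rat build GRCr8, read 5′ to 3′ on the strand of the gene. They lie at chr16:6419775-6420024 (+) for Sema3g, chr8:67244068-67244317 (+) for Sema7a, chr11:93363776-93364025 (-) for Ephb3 and chr7:30073387-30073636 (+) for Ntn4. Capitals mark GGGCGG, the GC box bound by Sp factors, and TATAA, the TATA element, each searched on both strands.
Sema3g: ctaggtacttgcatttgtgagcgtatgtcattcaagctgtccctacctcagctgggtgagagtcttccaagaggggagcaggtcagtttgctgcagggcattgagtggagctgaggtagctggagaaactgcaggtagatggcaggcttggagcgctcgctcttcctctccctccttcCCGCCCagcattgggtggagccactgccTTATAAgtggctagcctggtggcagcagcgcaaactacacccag
Sema7a: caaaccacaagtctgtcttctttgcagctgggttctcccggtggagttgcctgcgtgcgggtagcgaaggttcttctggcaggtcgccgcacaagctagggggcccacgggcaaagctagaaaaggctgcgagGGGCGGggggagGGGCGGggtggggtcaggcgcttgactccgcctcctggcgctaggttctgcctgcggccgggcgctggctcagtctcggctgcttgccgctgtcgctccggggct
Ephb3: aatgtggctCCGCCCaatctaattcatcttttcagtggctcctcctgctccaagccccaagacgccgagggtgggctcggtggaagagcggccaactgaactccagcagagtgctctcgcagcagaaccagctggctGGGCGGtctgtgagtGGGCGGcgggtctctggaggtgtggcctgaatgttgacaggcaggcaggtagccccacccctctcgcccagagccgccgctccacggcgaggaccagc
Ntn4: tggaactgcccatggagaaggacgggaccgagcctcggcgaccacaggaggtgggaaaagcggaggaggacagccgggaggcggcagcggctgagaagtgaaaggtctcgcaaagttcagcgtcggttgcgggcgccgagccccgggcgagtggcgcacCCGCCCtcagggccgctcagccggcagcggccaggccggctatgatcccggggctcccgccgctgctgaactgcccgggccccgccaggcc

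The GC box occurred 1 time in the Sema3g window, 2 times in Sema7a, 3 times in Ephb3 and 1 time in Ntn4. Only Sema3g of these 4 held a TATA element, which reads on both strands and begins 44 bases before the start. The GC content was 56.8% in Sema3g, 67.6% in Sema7a, 64.4% in Ephb3 and 72.4% in Ntn4. RefSeq gave a promoter for 40 of the 51 members. The GC box was found in 24 of the 40 (60%), against 33.5% of 27457 RefSeq genes. Those genes were not limited to the 13222 listed here, as the members are, so the sets are unlike. Shares among listed genes alone were not computed. TATAA was found in 1 of the 40, Sema3g, or 2.50%, against 25.6% of genes. The letters GCGNGGGNG, a pattern bound by zinc-finger factors of the EGR and WT1 kind that can overlap a GC box, were in 10 of 40 (25%) against 10.5% of genes. A match describes these letters only.

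In PAN glomeruli 7 guidance genes rose and 2 fell against control under the deposited scaling. The 7 were the membrane semaphorins Sema7a and Sema6b, the secreted Sema3b, the plexin Plxna1, the receptors Ephb3 and Ephb6, and Robo1. The 2 that fell were the receptor Epha4 and the semaphorin Sema6a. The share that rose, 13.7% of 51, compares with 21.7% of all genes, and the share that fell, 3.92%, with 0.522% of all genes. With median-ratio scaling 6 members rose and 5 fell, or 11.8% and 9.80%, against 7.12% and 1.51% of all genes. The median log2 difference over the members was 0.12 where all genes had 0.28, and -0.16 under median-ratio scaling where all genes had -0.0025. Sema7a, Sema6b, Sema3b, Ephb3, Ephb6, Robo1, Epha4 and Sema6a were called under both scalings, and Plxna1 under the deposited scaling only. Ntn4, Sema3d and Sema4g were called under median-ratio scaling, where all 3 fell, but not under the deposited scaling. Sema3d and Sema4g are named after their values were seen. The 4 PAN rats and the 4 controls did not overlap in 7 members that were higher in PAN and 2 that were lower. Over all genes, 22.4% were higher and 0.87% lower with no overlap.

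**Figure D1:**
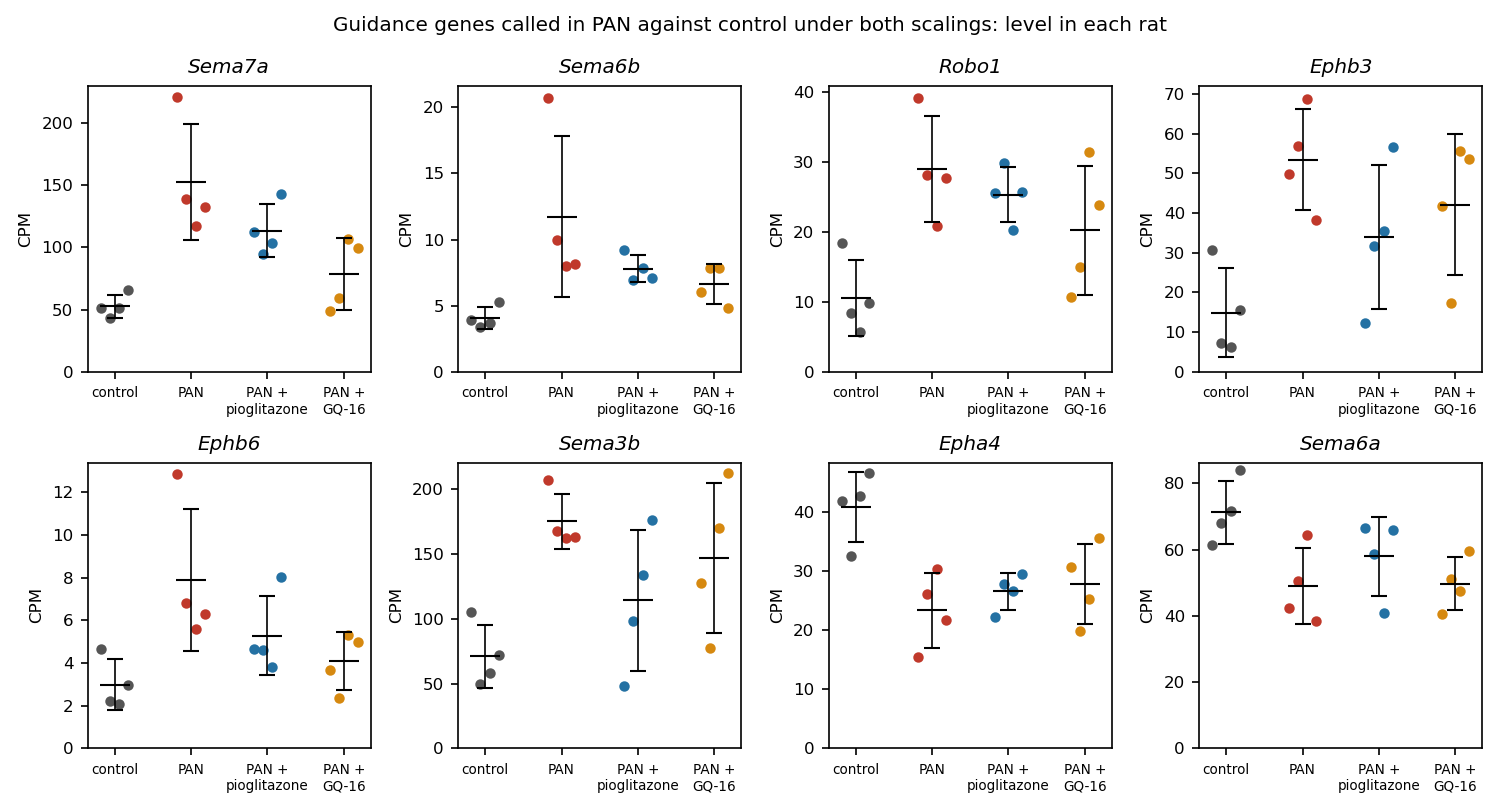
CPM of the 8 guidance genes called in PAN against control under both scalings; each point is 1 rat, and black lines are the group mean and SD (n = 4). Sema7a was at 117 CPM or above in all 4 PAN rats and at 65.6 CPM or below in all 4 controls, while the PAN_Pio rats overlapped PAN and 2 PAN_GQ-16 rats lay within the control range.

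Among the secreted semaphorins, which bind neuropilin and plexin complexes, 1 of 6 rose under the deposited scaling, against 21.7% of all genes. Sema3b, a class 3 semaphorin known for growth-suppressing effects, was at 105, 49.5, 58.2 and 71.8 CPM in the control rats and 207, 168, 162 and 163 CPM in the PAN rats. The treated rats had 48.1, 98.2, 134 and 176 CPM (PAN_Pio) and 128, 77.1, 170.1 and 212 CPM (PAN_GQ-16). All 4 PAN rats were above all 4 controls, and the treated rats spanned both. The log2 difference between PAN and control was 1.34 ± 0.35 (limma adjusted p = 0.0184), and 1.04 ± 0.29 (adjusted p = 0.0396) with median-ratio scaling. The call was lost without control rat 2 or 3 or PAN rat 1, at an adjusted p of up to 0.0776. It was also lost with the podocyte score in the model, at 0.44 (adjusted p = 0.238), and with library number in the model, at 0.84 (adjusted p = 0.285).

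Sema3g, the semaphorin that podocytes are known to secrete, was at 4588, 739, 702 and 1421 CPM in the controls. It was at 5155, 3369, 2579.6 and 2978 CPM in PAN, 1279.8, 2316, 3568 and 5225 CPM in PAN_Pio and 3374, 1326, 5528 and 7859 CPM in PAN_GQ-16. Control rat 1 was higher than 3 of the 4 PAN rats, and the groups overlapped. The log2 difference in PAN was 1.32 ± 0.61 and did not pass the test (limma adjusted p = 0.113). Without control rat 1 it was 1.91 and called (adjusted p = 0.0179). With the podocyte marker score in the model it was -0.32, the reverse sign.

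The class 3 members Sema3c and Sema3e had the same profile of a high control rat 1. Sema3c, a ligand of plexin D1 and neuropilins, averaged 30.8 ± 25.3 CPM in the controls and 70.2 ± 5.45 CPM in the PAN rats (SD, n = 4, as for all means below). Sema3e, which binds plexin D1 directly, averaged 30.0 ± 35.1 CPM and 64.9 ± 16.1 CPM. Neither difference was called (limma adjusted p = 0.0537 and 0.0684). Sema3d went the other way, with 19, 22.8, 23.4 and 25.6 CPM in control and 15, 17.5, 18.5 and 14.4 CPM in PAN. All PAN rats were below all controls, with a difference of -0.45 ± 0.17 (limma adjusted p = 0.0699). It was called with median-ratio scaling, at -0.74 ± 0.21 (adjusted p = 0.0389), with quantile normalization, at -0.78 (adjusted p = 0.0371), with the tubule score in the model, at -0.63 (adjusted p = 0.0318), and without control rat 1, at -0.53 (adjusted p = 0.0378). Sema3f, a neuropilin-2 ligand, averaged 84.7 ± 7.53 CPM in control and 87.5 ± 35.4 CPM in PAN.

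Of the 12 membrane semaphorins, 2 rose and 1 fell under the deposited scaling, and 2 rose and 2 fell under median-ratio scaling. All genes gave 21.7% higher and 0.522% lower, and 7.12% and 1.51% under median-ratio scaling. Sema7a, a GPI-anchored semaphorin that signals through integrins and plexin C1, was at 51.4, 43.5, 50.9 and 65.6 CPM in control and 221, 138, 117 and 133 CPM in PAN. The drug groups had 112, 94.4, 103 and 143 CPM (PAN_Pio) and 48.5, 59.6, 106 and 99.4 CPM (PAN_GQ-16). Every PAN and PAN_Pio rat was above every control, and PAN_GQ-16 rats 1 and 2 were within the control range. The log2 difference in PAN was 1.48 ± 0.25, a 2.79-fold difference (limma adjusted p = 0.00141), and 1.18 ± 0.21 (adjusted p = 0.00354) with median-ratio scaling. Leaving out any 1 of the 8 rats kept the call, at an adjusted p of 0.00216 to 0.00868. In the 11 libraries numbered 15 or lower, which hold 1 PAN rat that is assumed to vary like the others, the difference was 1.33 (adjusted p = 0.143).

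Sema6b, a class 6 transmembrane semaphorin that binds plexin A2 and A4, was at 3.91, 3.38, 3.70 and 5.27 CPM in control and 20.7, 9.97, 8.01 and 8.14 CPM in PAN. It was at 9.21, 6.98, 7.85 and 7.09 CPM in PAN_Pio and 6.01, 7.83, 7.87 and 4.79 CPM in PAN_GQ-16. PAN rat 1, the rat with the high fibroblast marker sum, was the highest, and the 3 other PAN rats were still above all controls. The difference was 1.24 ± 0.24 (limma adjusted p = 0.00344), and 0.98 ± 0.24 (adjusted p = 0.0208) with median-ratio scaling. Leaving out any 1 rat kept the call, at a difference of 0.95 to 1.37. With library number and median-ratio scaling together it was 1.11 (adjusted p = 0.0712).

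Sema6a, also a class 6 semaphorin, was lower in PAN. It was at 61.4, 68.1, 71.6 and 84 CPM in control, 42.4, 50.6, 64.5 and 38.5 CPM in PAN, 66.5, 58.5, 40.7 and 65.9 CPM in PAN_Pio and 40.5, 51.1, 47.6 and 59.6 CPM in PAN_GQ-16. PAN rat 3 overlapped the controls. The difference was -0.55 ± 0.18 (limma adjusted p = 0.0423), and -0.85 ± 0.20 (adjusted p = 0.0179) with median-ratio scaling. The call was lost when control rat 2, 3 or 4 or PAN rat 1, 2 or 4 was left out, at an adjusted p of up to 0.122, and with the podocyte score in the model, at -0.50 (adjusted p = 0.277).

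The other membrane semaphorins were not called under the deposited scaling. Sema5a, a semaphorin with thrombospondin repeats, averaged 137 ± 116 CPM in control and 249.7 ± 18.9 CPM in PAN, at a difference of 1.17 ± 0.44 (limma adjusted p = 0.0626). Control rat 1 had 308 CPM of it, above every PAN rat. Sema4g averaged 6.51 ± 2.77 CPM and 4.37 ± 0.68 CPM, a difference of -0.42 ± 0.23 that became -0.67 ± 0.18 after median-ratio scaling (limma adjusted p = 0.0304). The remaining 7 (Sema4a, Sema4b, Sema4c, Sema4d, Sema5b, Sema6c and Sema6d) had log2 differences of -0.30 (Sema6d) to 0.41 (Sema6c). Their adjusted p ran from 0.369 to 0.915 by limma.

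Plexins are the receptors that carry semaphorin signals into the cell through a GTPase-activating domain, and 1 of 7 rose, against 21.7% of all genes. Plxna1, a co-receptor with neuropilin for class 3 semaphorins, was at 72.9, 38.2, 35.1 and 46.3 CPM in control and 92.8, 81.1, 74.1 and 70.8 CPM in PAN. The drug groups had 57.3, 67.6, 77 and 85.7 CPM (PAN_Pio) and 56.3, 45.5, 85.2 and 81.6 CPM (PAN_GQ-16). Control rat 1 overlapped the PAN rats and the 3 other controls did not. The difference was 0.77 ± 0.23 (limma adjusted p = 0.0284), and 0.47 ± 0.15 (adjusted p = 0.0721) with median-ratio scaling, which no longer passed. It was also lost without control rat 2 or 3 or PAN rat 1 or 2, at up to 0.109, and with the podocyte score in the model, at 0.19 (adjusted p = 0.372). With library number in the model it was 0.52 (adjusted p = 0.329).

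Plxnb1, the receptor for Sema4d, averaged 76.6 ± 49.2 CPM in control and 153 ± 22.9 CPM in PAN, and its difference of 1.17 ± 0.42 was not called (limma adjusted p = 0.0556). The other 5 plexins had differences from 0.088 (Plxna4) to 0.51 (Plxnb2). Nrp1, the neuropilin shared by class 3 semaphorins and VEGF, was at 507, 521, 579 and 718 CPM in control and 551, 642, 733 and 441 CPM in PAN. It was at 863, 670.5, 511 and 686 CPM in PAN_Pio and 436, 609, 631 and 558 CPM in PAN_GQ-16. The 4 groups overlapped, with a PAN difference of 0.015 ± 0.20 that turned to -0.29 ± 0.21 with median-ratio scaling (limma adjusted p = 0.957 and 0.381). Nrp2, the partner of Sema3f, averaged 29.4 ± 3.97 CPM in control and 54.8 ± 36.9 CPM in PAN. PAN rat 1 alone had 108 CPM of Nrp2, and the difference was not called (limma adjusted p = 0.119).

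**Figure D2:**
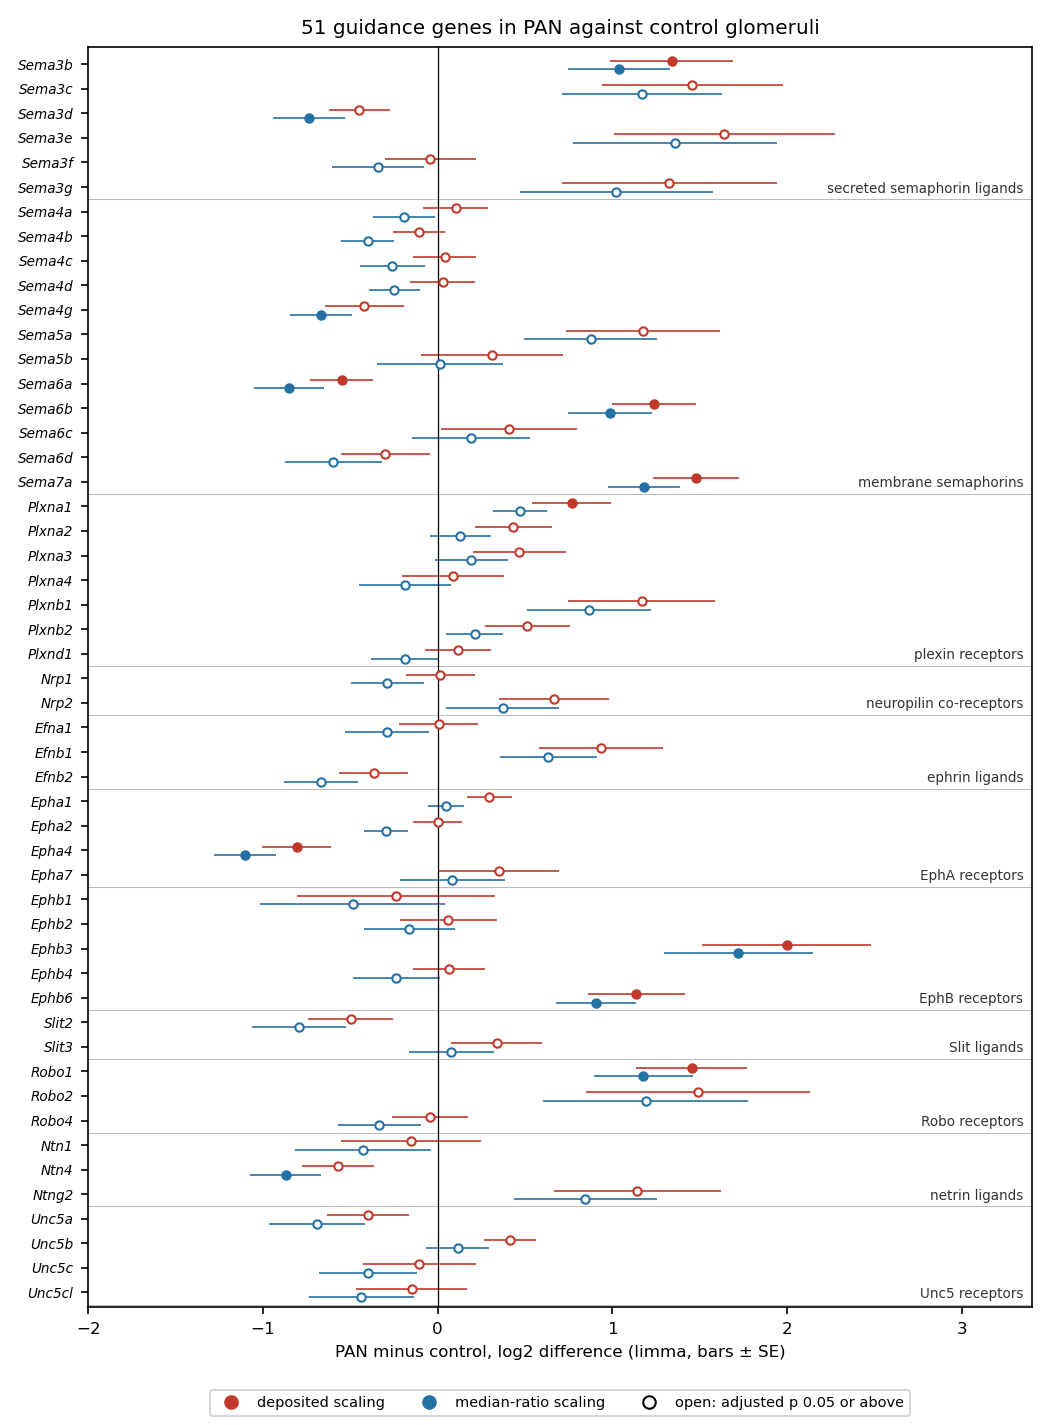
Log2 difference between PAN and control (x axis) for each of the 51 guidance genes, grouped by family, under the deposited scaling (red) and the median-ratio scaling (blue); bars are SE and filled points have an adjusted p under 0.05. The blue points lie to the left of the red ones, and Ephb3 has the largest difference of the called genes, at 2.00 (deposited).

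Ephrins are membrane-bound ligands that signal in both directions on contact with Eph receptor kinases, and none of the 3 listed was called under the deposited or the median-ratio scaling. Efnb1, a podocyte slit diaphragm ephrin, was at 526, 165, 189 and 309 CPM in control and 614, 547, 508 and 400.2 CPM in PAN. It was at 310.1, 401, 486 and 654 CPM in PAN_Pio and 476, 295, 661 and 824 CPM in PAN_GQ-16. Control rat 1 was within the PAN range and the 3 other controls were below it. The difference was 0.94 ± 0.36 (limma adjusted p = 0.0655), and -0.011 with the podocyte score in the model. Without control rat 1 it was 1.26 and called (adjusted p = 0.0116).

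Efnb2, the arterial ephrin, was at 531, 531, 594 and 703 CPM in control and 486, 467, 568 and 329 CPM in PAN. It was at 799, 535, 442 and 630.0 CPM in PAN_Pio and 447, 578, 497 and 574 CPM in PAN_GQ-16. PAN rat 3 lay within the control range. The difference was -0.37 ± 0.20 (limma adjusted p = 0.162), and -0.67 ± 0.21 (adjusted p = 0.0637) with median-ratio scaling. It was called lower in 2 of 11 alternatives, with quantile normalization, at -0.74 (adjusted p = 0.0350), and with the tubule score in the model, at -0.62 (adjusted p = 0.0345). Efna1, an ephrin-A on endothelium and epithelium, averaged 41 ± 5.64 CPM in control and 43.5 ± 18 CPM in PAN.

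Among the receptors for these ligands, 2 of 5 EphB genes rose and 1 of 4 EphA genes fell. All genes gave 21.7% higher and 0.522% lower. Ephb3, a receptor for ephrin-B ligands, was at 30.6, 7.29, 6.36 and 15.5 CPM in control and 49.8, 56.8, 68.7 and 38.3 CPM in PAN. The drug groups had 12.2, 31.8, 35.5 and 56.6 CPM (PAN_Pio) and 41.8, 17.3, 55.7 and 53.7 CPM (PAN_GQ-16). All PAN rats were above all controls, and both drug groups overlapped the controls. The difference was 2.00 ± 0.48, a 3.99-fold difference (limma adjusted p = 0.0125), and 1.72 ± 0.43 (adjusted p = 0.0228) with median-ratio scaling. With the podocyte score in the model it was 0.72 (adjusted p = 0.0607), and with library number 1.39 (adjusted p = 0.220). The call was also lost without control rat 2 or 3, at an adjusted p of up to 0.0579.

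Ephb6, an Eph receptor whose kinase domain is inactive, was at 4.68, 2.23, 2.06 and 2.99 CPM in control and 12.8, 6.79, 5.61 and 6.30 CPM in PAN. It was at 4.66, 4.62, 3.83 and 8.02 CPM in PAN_Pio and 3.65, 2.36, 5.33 and 4.97 CPM in PAN_GQ-16. All PAN rats were above all controls, with PAN rat 1 the highest. The difference was 1.14 ± 0.28 (limma adjusted p = 0.0128), and 0.91 ± 0.23 (adjusted p = 0.0252) with median-ratio scaling. It was lost without control rat 2 or 3, at an adjusted p of up to 0.0547, and with the podocyte score in the model, at 0.59 (adjusted p = 0.229). With library number in the model it was 0.78 (adjusted p = 0.226).

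Epha4, a receptor that takes ephrins of both classes, was at 41.8, 32.5, 42.6 and 46.5 CPM in control and 15.4, 26, 30.3 and 21.7 CPM in PAN. It was at 22.2, 27.8, 26.6 and 29.5 CPM in PAN_Pio and 30.6, 19.9, 25.2 and 35.6 CPM in PAN_GQ-16. Every PAN and PAN_Pio rat was below every control, and PAN_GQ-16 rat 4 overlapped them. The difference was -0.81 ± 0.20 (limma adjusted p = 0.0133), and -1.10 ± 0.18 (adjusted p = 0.00253) with median-ratio scaling. Leaving out any 1 rat kept the call, at an adjusted p of up to 0.0493.

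Ephb4, the venous receptor of ephrin-B2, was at 233, 296, 295 and 342 CPM in control and 334, 318, 354 and 223 CPM in PAN. It was at 490.4, 362, 234 and 324 CPM in PAN_Pio and 247, 329.5, 240.0 and 276 CPM in PAN_GQ-16. The groups overlapped, with a difference of 0.066 ± 0.21 that became -0.24 ± 0.25 with median-ratio scaling (limma adjusted p = 0.816 and 0.556). Epha1 was at 4.93, 3.68, 4.40 and 4.16 CPM in control and 6.06, 5.20, 5.21 and 5.44 CPM in PAN, which did not overlap, and its difference of 0.30 ± 0.13 was not called (limma adjusted p = 0.0961). The other 4 Eph genes (Epha2, Epha7, Ephb1 and Ephb2) had differences from -0.24 (Ephb1) to 0.35 (Epha7) and were not called.

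Slits are secreted ligands that repel cells through Robo receptors, and 1 of the 3 Robo genes rose, against 21.7% of all genes. Robo1 was at 18.4, 8.44, 5.66 and 9.79 CPM in control and 39.2, 28.3, 20.9 and 27.7 CPM in PAN. The drug groups had 25.5, 30.0, 20.3 and 25.8 CPM (PAN_Pio) and 10.7, 15, 31.4 and 23.8 CPM (PAN_GQ-16). All PAN and PAN_Pio rats were above all controls, and PAN_GQ-16 rats 1 and 2 were within the control range. The difference was 1.45 ± 0.32, a 2.74-fold difference (limma adjusted p = 0.00719), and 1.18 ± 0.28 (adjusted p = 0.0195) with median-ratio scaling. Leaving out any 1 rat kept the call. It was lost with the podocyte score in the model, at 0.90 (adjusted p = 0.148), with library number, at 1.32 (adjusted p = 0.0982), and with library number and median-ratio scaling, at 1.13 (adjusted p = 0.130).

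Robo2, which links Slit signals to nephrin at the podocyte slit diaphragm, was at 260.1, 37.4, 28.9 and 68.2 CPM in control and 236, 162, 174 and 189.8 CPM in PAN. It was at 53.5, 137, 229 and 266 CPM in PAN_Pio and 164, 69.7, 292 and 406 CPM in PAN_GQ-16. Control rat 1 was above every PAN rat and the 3 other controls were below every PAN rat. The difference was 1.49 ± 0.64 (limma adjusted p = 0.0933), and -0.27 with the podocyte score in the model. Without control rat 1 it was 2.14 and called (adjusted p = 0.0117). Robo4, the endothelial Robo, averaged 17.3 ± 4.25 CPM in control and 16.7 ± 3.93 CPM in PAN.

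Slit2, the ligand of Robo1 and Robo2, was at 36.2, 31.5, 32.4 and 28.1 CPM in control and 15.4, 20.7, 21.3 and 36.2 CPM in PAN. It was at 16.5, 17.2, 28.9 and 16 CPM in PAN_Pio and 25.5, 20.2, 25.7 and 14.3 CPM in PAN_GQ-16. PAN rat 4 was within the control range, together with PAN_Pio rat 3, and the other 6 rats of those groups were below it. The PAN difference was -0.50 ± 0.24 and was not called (limma adjusted p = 0.127, and 0.0823 with median-ratio scaling). Without PAN rat 4 it was -0.72 and called (adjusted p = 0.0314), and in the low-numbered libraries, where PAN rat 4 is the 1 PAN rat, it was 0.17, the reverse sign. Slit3 averaged 5.42 ± 0.913 CPM in control and 7.15 ± 1.47 CPM in PAN.

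Netrins are laminin-related ligands and Unc5 genes encode their repulsive receptors, and no gene of either kind was called under the deposited scaling. Ntn4, a basement membrane netrin, was at 313, 237, 279.8 and 323 CPM in control and 186, 181, 254 and 161 CPM in PAN. It was at 248, 213, 166 and 248 CPM in PAN_Pio and 122, 209.7, 175 and 244 CPM in PAN_GQ-16. PAN rat 3 lay within the control range and the 3 other PAN rats were below it. The difference was -0.57 ± 0.21 (limma adjusted p = 0.0565), and -0.87 ± 0.20 (adjusted p = 0.0169) with median-ratio scaling, where it fell. With library number in the model it was called under the deposited scaling too, at -0.86 (adjusted p = 0.0486), as it was without PAN rat 3, at -0.70 (adjusted p = 0.0405).

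Unc5b, an endothelial netrin receptor, was at 126, 145, 125 and 145 CPM in control and 199, 192, 208 and 132 CPM in PAN. It was at 222, 173, 170.1 and 179 CPM in PAN_Pio and 122, 162, 157 and 146 CPM in PAN_GQ-16. The 4 PAN_Pio rats were above all controls, and PAN rat 4 was within the control range. The PAN difference was 0.41 ± 0.15 (limma adjusted p = 0.056), and 0.11 ± 0.18 with median-ratio scaling. Without PAN rat 4 it was 0.56 and called (adjusted p = 0.0112). Ntng2, a membrane-anchored netrin-G, averaged 72.6 ± 54.3 CPM in control and 134 ± 18.9 CPM in PAN, and Ntn1 13.4 ± 4.15 CPM and 12.5 ± 6.57 CPM. Unc5a, Unc5c and Unc5cl had differences of -0.40 to -0.10.

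The number of members called in PAN depended on single control rats. Without control rat 1, which had high podocyte markers, 16 of 51 members rose and 3 fell, against 36.8% and 0.756% of all genes in the same fit. Without control rat 2 or control rat 3, 3 rose and 1 fell, against 6.38% and 0.129% of all genes without rat 2 and 6.21% and 0.129% without rat 3. With library numbers of 25 or higher as a covariate 2 members rose, Sema7a and Sema6b, and 3 fell, Epha4, Sema6a and Ntn4, against 2.88% and 0.0908% of all genes. The other 5 of the 7 that had risen (Robo1, Ephb3, Ephb6, Sema3b and Plxna1) were no longer called. With the podocyte score as a covariate Sema7a and Sema6b rose and Epha4, Ephb1 and Sema4g fell, against 3.7% and 0.507% of all genes. In the 11 libraries numbered 15 or lower, no member was called by limma, and 0.59% of all genes were higher and 0.00756% lower. Library number and PAN overlap in part, since 3 of 4 PAN rats and no control have a high number, while PAN rat 4 has a low one and 1 rat of each drug group a high one. Mesangial and fibroblast marker sums were higher and the mitochondrial share was lower in every PAN rat than in any control. Some leukocyte markers were called higher too. The part of these in the differences was not tested.

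In the pioglitazone-treated rats 2 members rose against the same controls and none fell. All genes gave 4.7% higher and 0.287% lower. The 2 were Sema7a, at 1.08 ± 0.25 (limma adjusted p = 0.024), and Robo1, at 1.29 ± 0.32 (adjusted p = 0.0325). Under median-ratio scaling Sema7a rose, at 0.87 ± 0.21 (adjusted p = 0.0403), and Robo1 had an adjusted p of 0.0513. Epha4, Sema4d and Sema4g fell there, at -0.81 ± 0.18, -0.76 ± 0.15 and -0.77 ± 0.18, with all genes at 2.22% higher and 0.62% lower. Under the deposited scaling these 3 were at -0.60, -0.55 and -0.59 and not called (limma adjusted p = 0.0853, 0.087 and 0.123). Sema4d is a leukocyte and endothelial semaphorin that binds plexin B1. The Sema7a call was lost without control rat 2 or 3 or PAN_Pio rat 2 or 4, at an adjusted p of up to 0.0993. The Robo1 call was lost without control rat 2 or 3 or PAN_Pio rat 1, 2 or 4, at up to 0.131. Without control rat 1, 10 of 51 members rose and none fell, against 12.2% and 0.363% of all genes in that fit. With the podocyte score in the model neither call held, at 0.85 for Sema7a (adjusted p = 0.0975) and 0.86 for Robo1 (adjusted p = 0.133), and 3 members fell, Sema4d, Sema4g and Ephb1, with all genes at 1.2% higher and 0.492% lower. Beside leaving out single rats, Sema7a lost its call in 4 of 11 alternatives, at an adjusted p of up to 0.269, and Robo1 in 8 of 11, at up to 0.226.

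In the rats given GQ-16 no member was called against control under either scaling. By limma 19 of 51 members had an unadjusted p under 0.05, against 23.9% of all genes. All genes gave 0.151% higher and 0% lower, and 0.666% and 0.0756% under median-ratio scaling. Under median-ratio scaling the smallest adjusted p by limma was 0.0584, for Epha4 at -0.73 ± 0.18. Ntn4 was next, at -0.83 ± 0.20 (adjusted p = 0.0586). Under the deposited scaling the smallest was 0.109, for Sema3d and Ephb3, at -0.57 ± 0.17 and 1.57 ± 0.48. Without control rat 1, 12 of 51 members rose and 1 fell, against 11.6% and 0.303% of all genes in that fit. Side by side, Sema7a was 1.48, 1.08 and 0.50 above control in PAN, PAN_Pio and PAN_GQ-16. Epha4 was at -0.81, -0.60 and -0.56. These 3 comparisons share the control rats.

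**Figure D3:**
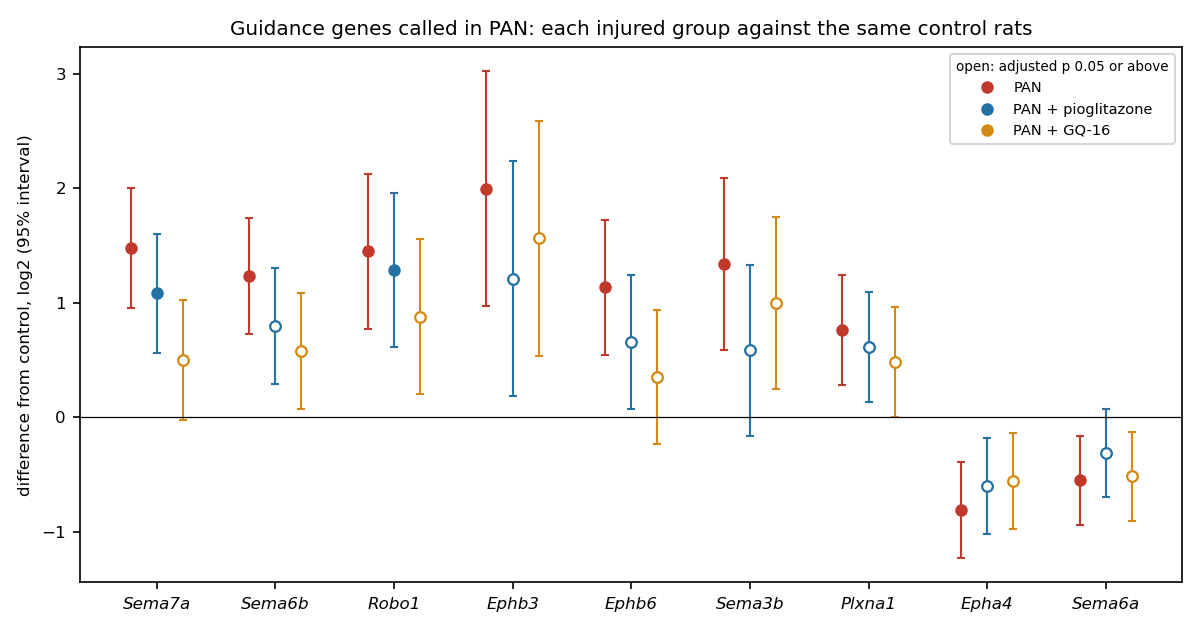
Log2 difference from control, with 95% intervals, of the 9 guidance genes called in PAN under the deposited scaling, in PAN (red), PAN_Pio (blue) and PAN_GQ-16 (orange); open points have an adjusted p of 0.05 or above. All 3 groups are compared with the same 4 control rats, and the intervals of Sema7a run from 0.96 to 2.00 in PAN and from -0.019 to 1.02 in PAN_GQ-16.

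Compared directly with PAN, no member was called in the pioglitazone group, and 0% of all genes were called under both scalings. Before adjustment 5 of 51 members passed 0.05 by limma, against 3.74% of all genes, and after it the lowest p of any member was 0.916. The 2 with the smallest p were Sema4d, at -0.58 ± 0.19 (95% interval -0.97 to -0.19), and Sema4a, an immune and endothelial semaphorin, at -0.57 ± 0.19 (-0.97 to -0.18). Sema4d was at 15.1, 9.26, 9.37 and 10.9 CPM in PAN and 5.21, 7.43, 8.44 and 7.22 CPM in PAN_Pio. These 2 groups did not overlap for Sema4d, but it was named for its small p, so this is no separate evidence. The share of all genes without overlap was computed for PAN against control only. For Sema7a the interval of the difference was -0.92 to 0.13, and for Sema3g -1.62 to 0.98.

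Against PAN, no member was called in the GQ-16 group either. An unadjusted p under 0.05 by limma was found for 5 of 51 members and 8.27% of all genes. All genes gave 0% higher and 0.0151% lower under the deposited scaling, and 0% in both directions under median-ratio scaling. Sema7a had the smallest p, at -0.98 ± 0.25 (95% interval -1.50 to -0.46, limma adjusted p = 0.317), and all 4 GQ-16 rats were below all 4 PAN rats. Epha1, the second, was at -0.42 ± 0.13 (-0.70 to -0.15, adjusted p = 0.418), from 6.06, 5.20, 5.21 and 5.44 CPM in PAN to 4.12, 3.26, 3.78 and 4.19 CPM in PAN_GQ-16. For Epha1 the 2 groups did not overlap. Both genes were named for their small p, so the separation of the same rats adds no evidence.

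Between the GQ-16 and pioglitazone groups, whose doses were not given, no member was called, with 0% of all genes. Before adjustment 5 of 51 members passed 0.05 by limma, against 5.94% of all genes, and after it the lowest value was 0.724. Sema3d was at -0.58 ± 0.17 (95% interval -0.95 to -0.21) and Sema4g at 0.59 ± 0.23 (0.10 to 1.07). Sema3d was at 32.7, 23.7, 16.5 and 20.9 CPM in PAN_Pio and 15.4, 13.5, 13 and 18.4 CPM in PAN_GQ-16, which overlapped. Sema4g was at 2.62, 3.78, 4.36 and 4.52 CPM and 5.64, 5.06, 8.15 and 6.06 CPM, and each GQ-16 rat was above each PAN_Pio rat. As Sema4g was named for its small p, this adds nothing to the test.

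Across the 16 rats, guidance genes varied with the podocyte markers and with the endothelial markers, and many members were called on both scores under median-ratio scaling. A limma slope on the mean log2(CPM + 1) of the 12 podocyte markers, with group means in the same model, was called and positive for 22 of 51 members (43.1%), a share below the 46.5% of all genes that rose in this way. With median-ratio scaling of genes and score, 17 of 51 members rose (33.3%), against 10.5% of all genes. All 17 were among the 22. None fell under the deposited scaling and 4 fell under the median-ratio scaling (Ephb4, Sema3d, Unc5a and Unc5b), against 0.59% and 5.82% of all genes. The 17 that rose were the secreted Sema3b, Sema3c, Sema3e and Sema3g, the membrane Sema5a, Sema5b and Sema6c, the plexins Plxna1, Plxna3, Plxnb1 and Plxnb2, Efnb1, Epha7, Ephb1, Ephb3, Robo2 and Ntng2. No marker in the score is itself a guidance gene. These slopes were chosen after the data were seen, and library depth and composition are shared by the genes and the score.

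The steepest slopes were those of Robo2, at 1.22 ± 0.064 log2 units per unit of the score, Sema3e at 1.20 ± 0.071 and Sema3g at 1.14 ± 0.072 (limma adjusted p = 6.7e-09, 2e-08 and 3e-08). With median-ratio scaling these 3 were 1.28, 1.26 and 1.17. Efnb1 had 0.66 ± 0.047, Ephb3 0.89 ± 0.08 and Plxna1 0.40 ± 0.04. Sema7a had 0.21 ± 0.11 (limma adjusted p = 0.125) and Sema6b -0.011 ± 0.12 (adjusted p = 0.946). The Sema7a slope was 0.046 with median-ratio scaling. Without control rat 1 and GQ-16 rat 2 it was 0.40 ± 0.17 (limma adjusted p = 0.105), beside 0.36 for Plxna1 in that fit. Robo1 and Ephb6 had slopes of 0.38 ± 0.13 and 0.38 ± 0.10 that were called under the deposited scaling only. Without the 2 rats whose scores lay farthest from the mean of their own group, control rat 1 and GQ-16 rat 2, 16 members rose under the deposited scaling, against 21% of all genes.

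**Figure D4:**
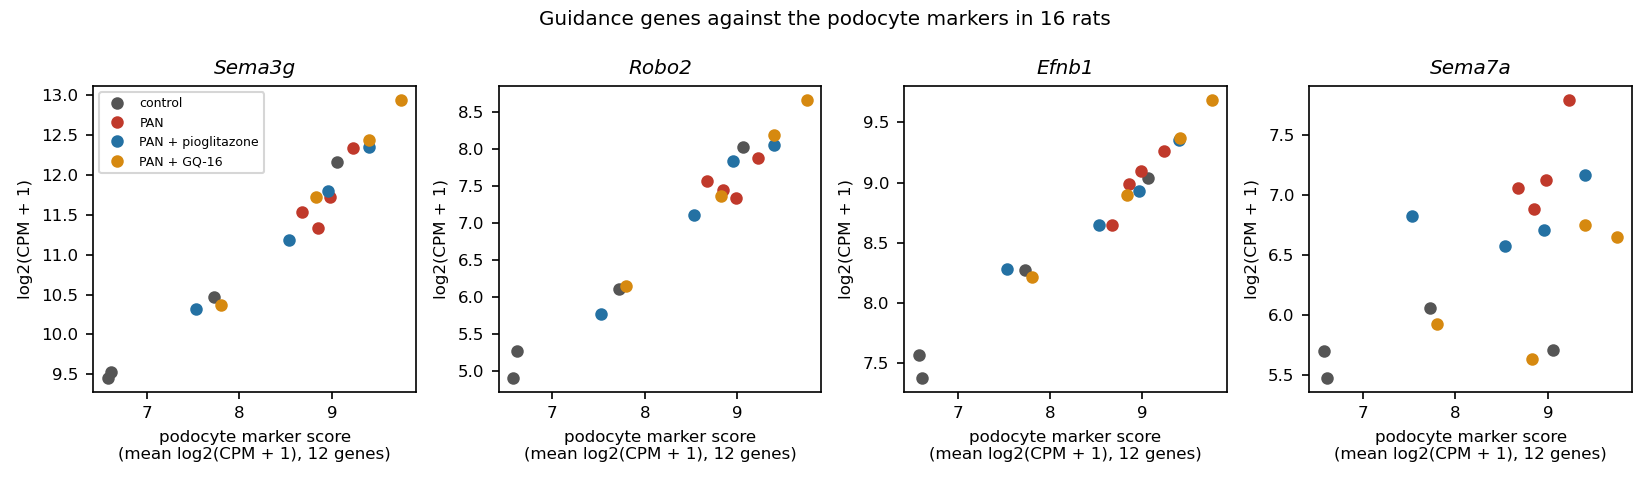
Level of Sema3g, Robo2, Efnb1 and Sema7a (y axis, log2(CPM + 1)) against the podocyte marker score (x axis) in the 16 rats, coloured by group. Sema3g, Robo2 and Efnb1 rise along the score, at slopes of 1.14, 1.22 and 0.66, while for Sema7a the PAN rats lie above control rat 1, whose score is within their range.

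By the same fit on the endothelial markers, 13 of 51 members rose with their score, against 4.98% of all genes, and 15 under median-ratio scaling, against 12.2%. The 12 in common were the ligands Efna1, Efnb2 and Sema3d, the membrane semaphorins Sema4c, Sema6a and Sema6d, and the receptors Ephb4, Nrp1, Plxnd1, Robo4, Unc5a and Unc5b. Ephrin-B2 and EphB4, the arterial and venous pair, had slopes of 1.19 ± 0.19 and 1.33 ± 0.18 (limma adjusted p = 0.00318 and 0.00234). Nrp1 had 1.15 ± 0.20, Robo4 1.29 ± 0.24 and Plxnd1, the endothelial Sema3e receptor, 1.01 ± 0.22. Sema6d had the steepest, at 1.60 ± 0.25. Without PAN_Pio rats 1 and 3, whose scores lay farthest from their group mean, none of the 13222 genes rose or fell with the score by limma (0%), and the slopes of these 12 ran from 0.55 to 2.01, against 0.75 to 1.60 in all rats. In the libraries numbered 15 or lower no gene rose or fell with it either, and the 12 slopes ran from 0.56 to 1.34. Leaving out PAN rat 4 left 5 members rising, against 1.82% of all genes. Leaving out PAN_Pio rat 1 left 7, against 1.86%, and PAN_Pio rat 3 left 5, against 1.37%.

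Other members fell with the endothelial score. They numbered 4 under the deposited scaling (Epha7, Ntn1, Slit2 and Unc5cl), against 4.11% of all genes. This count was 0 without any 1 of control rat 1, PAN rats 2 and 4, GQ-16 rat 1 and PAN_Pio rats 1 and 3, where 0.0151% to 1.71% of all genes fell, and 1 without control rat 3 or GQ-16 rat 2 or 4. It was also 0 without PAN_Pio rats 1 and 3 together and in the low-numbered libraries. Members that fell numbered 16 of 51 (31.4%) under the median-ratio scaling, against 9.41%. Of the 16, 14 belong to the 17 that rose with the podocyte markers. The other 2 of the 16 were Ntn1 and Unc5cl. Under the median-ratio scaling Robo2 was at -2.70, Sema3e at -2.72 and Sema3g at -2.34 log2 units per unit of the score. Under the deposited scaling these 3 were at -1.97, -2.02 and -1.49 and not called (limma adjusted p = 0.321, 0.295 and 0.479).

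Downstream of these receptors, 80 of a list of 91 co-receptors and cytoplasmic effectors were listed. In PAN 25 of the 80 rose and 1 fell under the deposited scaling, against 21.7% and 0.522% of all genes. Under median-ratio scaling 9 rose and 3 fell, against 7.12% and 1.51%. Their median difference was 0.31, near the 0.28 of all genes. Under the deposited scaling the calls were 10 higher of 22 plexin and neuropilin effectors, 7 of 19 Eph effectors, 2 of 17 Robo and netrin effectors and 2 of 10 GTPase and actin genes. Under median-ratio scaling they were 5 higher of the 22, 1 higher and 2 lower of the 19, and none in the last 2 lists. Among 12 co-receptors 4 rose and 1 fell, and 3 rose and 1 fell under median-ratio scaling. Dpysl3, a collapsin response mediator that carries semaphorin signals to the cytoskeleton, averaged 27.1 ± 7.42 CPM in the controls and 64.9 ± 7.50 CPM in PAN. Its difference was 1.26 ± 0.21 (limma adjusted p = 0.00164). Rgma, the repulsive guidance molecule that binds neogenin, averaged 2.85 ± 0.5 and 9.57 ± 3.48 CPM, a difference of 1.40 ± 0.25 (limma adjusted p = 0.00236). Limk2, a kinase that phosphorylates cofilin, averaged 28.8 ± 4.23 and 51.2 ± 8.17 CPM, a difference of 0.81 ± 0.16 (limma adjusted p = 0.00479). All 3 were called under median-ratio scaling too. Of the 80, 5 rose and 1 fell in PAN_Pio against control, where all genes gave 4.7% and 0.287%, and 2 rose and 2 fell under median-ratio scaling, where all genes gave 2.22% and 0.62%. In PAN_GQ-16 none was called by limma under the deposited scaling, and 19 of 80 had an unadjusted p under 0.05, against 23.9% of all genes. Under median-ratio scaling 1 fell, against 0.0756% of all genes. It was Met, the hepatocyte growth factor receptor, at -0.69 ± 0.14 (limma adjusted p = 0.0399), and -0.52 ± 0.15 (adjusted p = 0.105) under the deposited scaling.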

How the data were processed

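Glomerular poly(A) RNA of 16 rats was sequenced in stranded paired-end libraries, per the labels' protocols. The submitters' processing notes name HISAT2, featureCounts, Subread, limma and the build Rnor_6.0, with no versions or parameters. The authors deposited 1 table of log2 CPM for 13222 genes, with 0.5 added to each read count and 1 to each library total. Values came back to whole reads in 99.995% of cases, within 0.1 read. Log2 values were converted to CPM, and log2(CPM + 1) was fitted with limma 3.58.1 (R 4.3.3), with the trend option, 4 group means and all 16 libraries. P-values were adjusted by Benjamini-Hochberg over all genes. The median-ratio scaling was computed on the recovered reads. The fit was tested on simulated data. Groups came from the labels. Replicate numbers follow accession order and pair nothing.

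Members, marker lists and partner lists were chosen with earlier results of these data known. Genes named were those called against control, the 2 members with the smallest p in the other comparisons, and a list with described glomerular roles: Sema3a, Sema3g, Nrp1, Plxna1, Efnb1, Efnb2, Ephb4, Robo2, Slit2, Ntn4 and Unc5b. Alternatives were other scalings, a pseudocount of 0.1, a mean of at least 10 CPM, voom, only the groups compared, covariates for library number and for podocyte and tubule markers, and leaving out each rat. Marker slopes, the low-numbered libraries and the combined library number and scaling fit were added after seeing the data. Promoters are from RefSeq GRCr8, matched by symbol.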

Additional observations from a re-analysis of the deposited data

Results flagged for a closer look

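Among 92 sets of 4 rats (23 genes in 4 groups) examined for a lone high or low value on the log2 CPM scale, 2 had one, where chance gives about 4.6. Sema3b in PAN rat 1 was at 7.694 log2 CPM, or 207 CPM, against 162 to 168 CPM in the other 3 PAN rats. Slit2 in PAN_Pio rat 3 was at 4.853 log2 CPM, or 28.9 CPM, against 16 to 17.2 CPM in the other 3 rats of its group.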

How the results depend on the processing

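The count of members called in PAN against control was 9 (7 higher, 2 lower), and 11 with median-ratio scaling (6 higher, 5 lower). It was 5 with library number as a covariate (2 higher, 3 lower) and 4 with that covariate and median-ratio scaling (1 higher, 3 lower). With the podocyte score as a covariate it was 5 (2 higher, 3 lower). Leaving out 1 rat gave 4 (without control rat 2 or 3) to 19 (without control rat 1). For PAN_Pio against control the count was 2, both higher. It was 4 with median-ratio scaling, with quantile normalization and with voom, each 1 higher and 3 lower. It was 1 with library number (higher), 5 with library number and median-ratio scaling (all lower), 3 with the podocyte score (all lower), 0 with the tubule score and 1 in the low-numbered libraries (higher), and 0 to 10 without 1 rat. For PAN_GQ-16 against control it was 0, and 0 to 13 without 1 rat. In the other 3 comparisons no alternative gave a call, with 0 to 0 without 1 rat. Members rising with podocyte markers numbered 20 to 23 without 1 rat, where 36.1% to 47.9% of all genes rose. Those rising with endothelial markers numbered 0 without the 2 rats farthest from their group mean, 0 in the low-numbered libraries and 5 to 15 without 1 rat. Those falling with them numbered 4, and 0 in both of these fits and 0 to 4 without 1 rat. Of all genes 0.597% to 23.8% were called in PAN in these alternatives and 6.34% to 37.5% without 1 rat, 0.174% to 5.19% and 0.363% to 12.6% in PAN_Pio, and 0.0454% to 1.09% and 0% to 11.9% in PAN_GQ-16. With the endothelial markers, 1.37% to 5.54% of all genes rose and 0.0151% to 8.26% fell without 1 rat. The causes were not tested.

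With median-ratio scaling 9 of the 51 members turned sign in PAN against control (Efna1, Ephb2, Ephb4, Nrp1, Plxna4, Plxnd1, Sema4a, Sema4c and Sema4d), none of them called. The alternatives were followed gene by gene for the named genes only, and 7 of those turned in at least 1. Nrp1 was at -0.29 with median-ratio scaling, -0.33 with quantile normalization, -0.30 with voom, -0.13 with library number, -0.34 with library number and median-ratio scaling, -0.17 with the tubule score and -0.38 in the low-numbered libraries. Ephb4 was, in the same order, at -0.24, -0.26, -0.25, -0.065, -0.27, -0.22 and -0.37. With the podocyte score Sema3g was at -0.32, Robo2 at -0.27 and Efnb1 at -0.011. In the low-numbered libraries Slit2 was at 0.17 and Unc5b at -0.033. Without 1 rat Nrp1 ran from -0.096 to 0.15 and Ephb4 from -0.037 to 0.21. No paired analysis was possible because the replicate numbers follow accession order and no label pairs the rats. A gene with no read could still be present at up to 3 reads, or 0.137 to 0.225 CPM across the libraries (counting error only), and the lowest value of a member was 0.887 CPM (Ephb2).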
